A study of Mus musculus with 4 samples.

Results

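The genes described here are 10 transcription regulators of male germ cells, namely Mybl1, Rfx1, Rfx2, Rfx3, Crem, Sox30, Tcfl5, Tbpl1, Taf4b and Gtf2a1l. They were taken by name for their known roles, with earlier results of these data known. They make up 10 of the 37718 gene rows, 126 of the 207562 introns and 370 of the 605144 exon segments and splice junctions that were counted. The RNA came from testes of Tdrd6+/- and Tdrd6-/- mice at 20 days post partum, and the comparison asks how transcripts differ when TDRD6, a germ cell protein with Tudor domains, is missing. Cells carrying human CD4 (hCD4) on their surface were taken with magnetic beads, and since hCD4 is expressed from the Tdrd6 promoter, also in the heterozygous controls, the sort enriches late prophase I spermatocytes, mostly at diplotene. Each genotype was represented by 2 libraries of rRNA-depleted total RNA, each made from a pool of at least 4 mice, so the heterozygous animals rather than wild-type ones served as the reference, and differences between single mice could not be seen.

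The program of a spermatocyte depends on regulators that are switched on in sequence. MYBL1 (A-MYB) is the master regulator of the pachytene stage, RFX and SOX30 proteins carry the program on towards ciliary and spermatid genes, and TCFL5 is a basic helix-loop-helix factor of the same cells. CREM drives postmeiotic genes, and it works together with germ cell versions of the general transcription machinery: TBPL1 (TRF2) is a relative of the TATA-binding protein, TAF4B a germ cell subunit of TFIID, and GTF2A1L (ALF) a germ cell counterpart of the large TFIIA subunit.

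The targeted gene followed the labels, with 33220 and 39322 counts of Tdrd6 in the heterozygous libraries against 359 and 400 in the knockout libraries. Gene rows held 26454326 to 31388750 counts per library and introns held 9603669 to 13937818. Tdrd6-/- replicate 2 stood apart, with 21.9% of the fragments handled by the intron counter on an intron, against 27.1% to 31.0% in the other 3 libraries. The summed level of 6 late spermatocyte markers was 7390 to 8780 CPM (counts scaled to the size of the library), whereas Sertoli markers summed to 80.7 to 102 CPM, and those of Leydig cells, peritubular cells and macrophages to at most 9.21 CPM. Spermatogonium markers summed to 24.2 and 23.2 CPM in Tdrd6+/- and to 28 and 31.9 CPM in Tdrd6-/-, with 0 of 7 past the threshold by edgeR and 1 at an unadjusted p under 0.05, Stra8 (log2 fold change 0.92). The summed Sertoli markers were at 80.8 and 80.7 CPM in Tdrd6+/- and at 95.9 and 102 CPM in Tdrd6-/-, with 0 of 7 past the threshold by edgeR and 2 at an unadjusted p under 0.05 in opposite directions, Clu (0.41) and Sox9 (-0.78). Of the 6 spermatid markers, Prm1, Prm2, Tnp1 and Tnp2 had at most 10 counts in any library, and both tested ones, Acrv1 and Spaca1, were higher in Tdrd6-/- (log2 fold changes of 0.96 and 0.83, adjusted p of 0.0565 and 0.0359, edgeR). The summed spermatid markers were at 9.21 and 13.1 CPM in Tdrd6+/- and at 21.7 and 19.7 CPM in Tdrd6-/-, and the part of these marker levels in the values below was not tested. In bulk RNA, fewer cells of a type and less RNA per cell cannot be told apart.

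Levels of the 10 regulators differed widely. On a per-length scale, CPM divided by the kilobases of exon, Tcfl5 was the most abundant, with a mean of 180.2 ± 5.22 (SD, n = 4 libraries), rank 185 of the 18827 genes ranked. Gtf2a1l (151 ± 22.7, rank 247) and Tbpl1 (135 ± 9.09, rank 302) came next, and their ranges overlapped, from 119 to 171 and from 126 to 147. The germ cell TFIIA subunit and the TBP relative were thus among the more abundant transcripts of these cells.

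The master regulator Mybl1 followed at 55.8 ± 3.22 per kilobase (rank 927), then Rfx2 at 38.8 ± 6.62 (rank 1423) and Crem at 32.7 ± 1.61 (rank 1697). Rfx2 and Crem overlapped in range, whereas Mybl1 lay above both. Sox30 was at 12.6 ± 2.93 per kilobase (rank 3831), with no overlap with its neighbours in the order. Taf4b (2.96 ± 0.376, rank 7838), Rfx3 (1.27 ± 0.313, rank 10345) and Rfx1 (0.937 ± 0.322, rank 11257) were low. Rfx3 and Rfx1 overlapped in range. Among the 3 RFX genes described, Rfx2 thus lay far above the other 2 per kilobase.

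**Figure D1:**
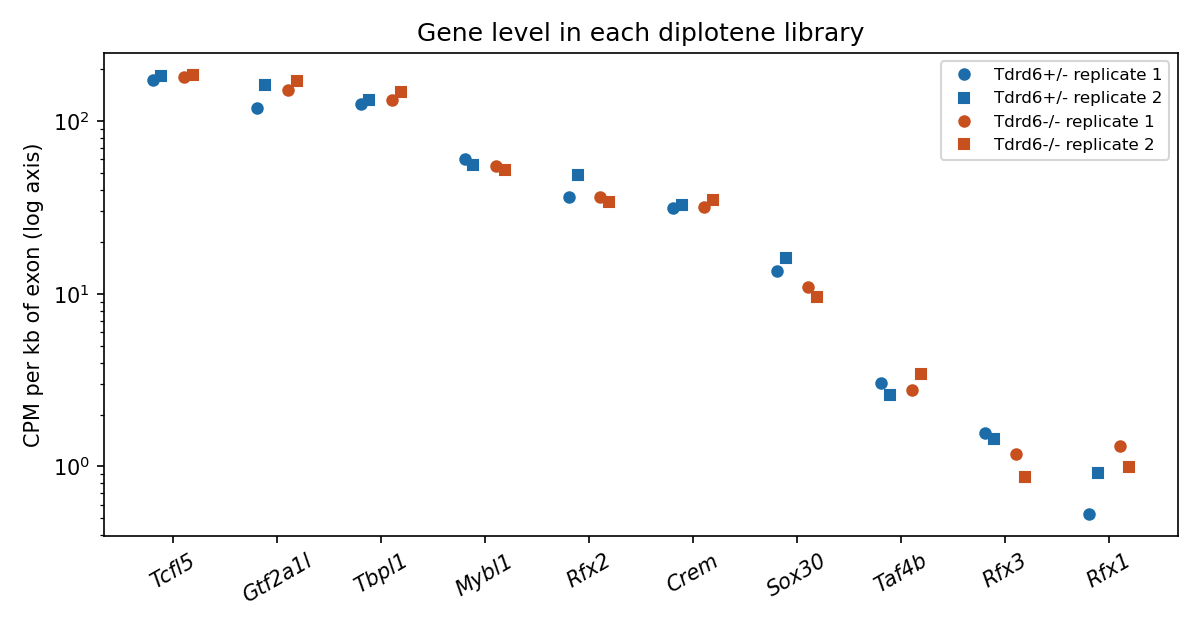
Level of the 10 regulators in each library, as CPM per kilobase of exon on a log axis, ordered by their mean; circles are replicate 1 and squares replicate 2. Tcfl5, Gtf2a1l and Tbpl1 lie above 100 in every library, and Rfx3 and Rfx1 lie near 1.

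At the level of whole genes, 1 of the 10 regulators passed a false discovery rate of 0.1 in the edgeR quasi-likelihood test, Sox30, against 4.8% of the 16555 genes tested (3.78% in the direction of Sox30, lower in Tdrd6-/-). Sox30, an HMG box factor required for the passage to spermatids, had 40.7 and 48.5 CPM in Tdrd6+/- and 32.6 and 28.8 CPM in Tdrd6-/-. Both Tdrd6-/- libraries lay below both Tdrd6+/- libraries. Its level in Tdrd6-/- was 0.688 of that in Tdrd6+/- (log2 fold change -0.54, SE 0.16, adjusted p = 0.0671, edgeR). The call was lost when Tdrd6+/- replicate 2 (adjusted p = 0.195), Tdrd6-/- replicate 1 (0.13) or Tdrd6-/- replicate 2 (0.648) was left out, and with no filter on low counts (0.368), each time with a lower level in Tdrd6-/-.

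The genotypes did not overlap in CPM for 5 of the 10 regulators, Mybl1, Rfx1, Rfx2, Rfx3 and Sox30, against 43.5% of all genes tested. The 2 RFX genes of low level moved in opposite directions without passing the threshold. Rfx3 had 17.3 and 16.0 CPM in Tdrd6+/- and 13.1 and 9.53 CPM in Tdrd6-/- (log2 fold change -0.56, SE 0.20, adjusted p = 0.169). Without Tdrd6-/- replicate 1 it passed (-0.80, adjusted p = 0.0918), and without Tdrd6-/- replicate 2 it was -0.34 (adjusted p = 0.97). Rfx1 had 3.40 and 5.89 CPM in Tdrd6+/- and 8.44 and 6.37 CPM in Tdrd6-/- (0.67, SE 0.27, adjusted p = 0.227). It rested on only 89 to 267 counts per library, and without Tdrd6+/- replicate 2 it passed (1.13, adjusted p = 0.0528), whereas without Tdrd6+/- replicate 1 it was 0.34 (adjusted p = 0.721).

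Rfx2, the most abundant of the 3 RFX genes described and itself a target of MYBL1, had 267 and 355 CPM in Tdrd6+/- and 265 and 248 CPM in Tdrd6-/-. Among the family relatives, Rfx4 had 135 and 139 CPM against 116 and 117 CPM (log2 fold change -0.23, adjusted p = 0.448, edgeR). For Rfx2, the library that stood out was Tdrd6+/- replicate 2. The difference did not pass the threshold (log2 fold change -0.28, SE 0.14, adjusted p = 0.390), but it did without Tdrd6+/- replicate 1 (-0.46, adjusted p = 0.0676), and without Tdrd6+/- replicate 2 it was -0.06 (adjusted p = 0.866). Mybl1 had 325 and 300.2 CPM in Tdrd6+/- and 298 and 283 CPM in Tdrd6-/- (-0.11, SE 0.13, adjusted p = 0.80). The means of the genotypes, 312 and 290.1 CPM, lay closer together than the 2 heterozygous replicates.

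Crem had 186 and 192 CPM in Tdrd6+/- and 188 and 207 CPM in Tdrd6-/- (log2 fold change 0.06, SE 0.13, adjusted p = 0.896). Tcfl5 had 547 and 577 CPM against 573 and 585 CPM (0.04, SE 0.13, adjusted p = 0.930). Tbpl1 had 412 and 433 CPM against 433 and 482 CPM (0.11, SE 0.13, adjusted p = 0.785). The genotypes of these 3 genes overlapped, and their log2 intervals (95% by a normal approximation from the SE) ran from -0.19 to 0.32, from -0.21 to 0.29 and from -0.14 to 0.37. Intervals of the edgeR test itself would be wider. Taf4b had 15.6 and 13.4 CPM in Tdrd6+/- and 14.2 and 17.8 CPM in Tdrd6-/- (0.14, SE 0.19, adjusted p = 0.832). Gtf2a1l had 225 and 307 CPM in Tdrd6+/- and 287 and 322 CPM in Tdrd6-/- (0.20, SE 0.15, adjusted p = 0.615). For Gtf2a1l the lowest library was Tdrd6+/- replicate 1, and without Tdrd6+/- replicate 2 the gene passed the threshold as higher in Tdrd6-/- (0.44, adjusted p = 0.0927), whereas without Tdrd6+/- replicate 1 the log2 fold change was 0.00 (adjusted p = 0.999). Over the 10 regulators the median log2 fold change was 0.05, beside 0.01 over all genes tested.

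**Figure D2:**
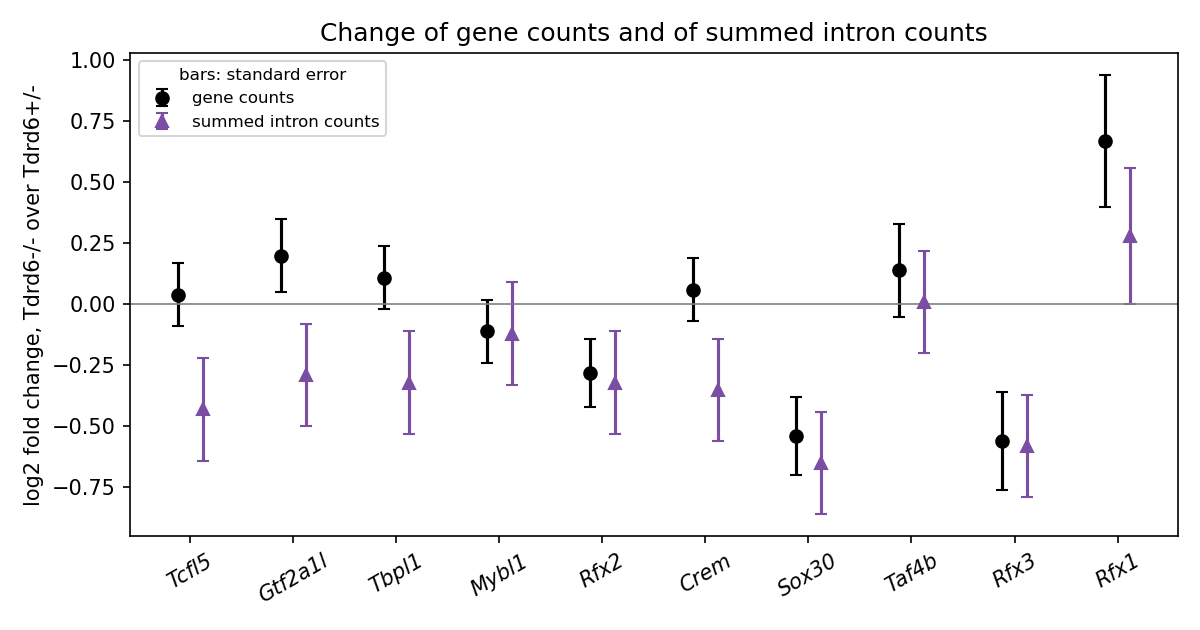
Log2 fold change of Tdrd6-/- over Tdrd6+/- for gene counts (circles) and summed intron counts (triangles) of the 10 regulators; bars are standard errors of fits to 2 libraries per genotype. Sox30 and Rfx3 lie below 0 on both measures, whereas Tcfl5, Tbpl1, Gtf2a1l and Crem lie above 0 in gene counts and below 0 in intron counts.

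The relatives, partners and targets of these regulators were followed as lists, beside 3.78% of the 16555 genes tested that were called lower in Tdrd6-/-. Apart from the regulators, list genes were not checked with a library left out or under the other alternatives. Of 15 family relatives, 12 were tested, and 4 were lower and 0 higher in Tdrd6-/-, with a median of -0.30. The 3 largest of these changes were in Rfx7, an RFX family member (65.3 and 50.8 against 36.8 and 32.5 CPM, log2 fold change -0.74, adjusted p = 0.00935), Atf1, the CREB and CREM relative (-0.60, adjusted p = 0.0344), and Gtf2a1, the somatic counterpart of Gtf2a1l (192 and 166 against 129 and 127 CPM, -0.48, adjusted p = 0.0452). The fourth was Sox6 (-0.45, adjusted p = 0.0687), named after its value was seen. Gtf2a1 was also the only call among 17 tested subunits of TFIID and TFIIA, whose median was 0.03.

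Of 8 partners of CREM, 7 were tested and 2 were lower in Tdrd6-/-, against 3.78% of all genes tested. They were the histone acetyltransferases Ep300 (63.5 and 59.6 against 38.4 and 27.2 CPM, log2 fold change -0.91, adjusted p = 0.00215) and Crebbp (83.4 and 81.6 against 60.2 and 45.7 CPM, -0.64, adjusted p = 0.0172). Of 8 CREM targets, 4 were tested and 0 passed by edgeR, with a median of 0.30 and 1 at an unadjusted p under 0.05, the sperm tail gene Odf1 (3.51 and 5.56 against 8.03 and 7.06 CPM, 0.73, adjusted p = 0.142). Of the other tested targets, Ldhc (0.25) and Smcp (0.35) were higher and Ace (-0.23) was lower, with overlapping genotypes in Smcp and Ace. The 4 targets not tested were the protamine and transition protein genes with at most 10 counts. The higher spermatid markers given above go the same way as Odf1 and not as Ace, and a link was not tested. Of 10 MYBL1 targets, which include Rfx2 and Tcfl5, 1 was lower in Tdrd6-/-, against 3.78% of all genes tested. It was the PIWI gene Piwil1 (1110 and 928 against 732 and 765 CPM, -0.44, adjusted p = 0.0773). The median was -0.12, and 3 had an unadjusted p under 0.05, all lower in Tdrd6-/-. Of 13 intraflagellar transport genes, a class known as RFX targets, 0 passed by edgeR and the median was 0.02. An unadjusted p under 0.05 was found in 3, all lower in Tdrd6-/-. The share of all genes at that level was not counted, so this count and that of the MYBL1 targets have no background.

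Because the RNA was not selected for poly(A) tails, unspliced precursors contribute reads, and intron counts of a gene follow the amount of precursor and of retained introns. Summed over all introns of a gene and scaled to intron counts, 0 of the 10 regulators passed the false discovery rate by edgeR, against 1.42% of the 15025 genes tested, and 3 had an unadjusted p under 0.05. These 3 were Sox30, Rfx3 and Tcfl5, and the share of all genes at that level was not counted. The DESeq2 Wald test called 1, Sox30 (log2 fold change -0.67, adjusted p = 0.0538), and 2 passed without Tdrd6-/- replicate 1, Sox30 (-0.70, 0.0761) and Rfx3 (-0.76, 0.0799).

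The summed introns of Sox30 had 151 and 120 intron CPM in Tdrd6+/- and 89.2 and 83.5 in Tdrd6-/- (log2 fold change -0.65, SE 0.21, adjusted p = 0.127). The summed introns of Rfx3 had 317 and 247 intron CPM against 211 and 167 (-0.58, SE 0.21, adjusted p = 0.182). Those of Tcfl5 had 320 and 270.0 against 208 and 229 (-0.43, SE 0.21, adjusted p = 0.366). In all 3 genes both Tdrd6-/- libraries lay below both Tdrd6+/- libraries. Genotypes did not overlap in 8 of the 10 regulators, with Rfx2, Crem, Tbpl1 and Gtf2a1l also lower and Rfx1 higher in Tdrd6-/-, against 43.5% of all genes tested. The log2 fold changes were -0.32 in Rfx2, -0.35 in Crem, -0.32 in Tbpl1, -0.29 in Gtf2a1l and 0.28 in Rfx1. Mybl1 (-0.12) and Taf4b (0.01) overlapped. With library sizes of the gene counts, the values of all genes fell by a median of 0.30 on the log2 scale, and those of Rfx1 and Taf4b turned to -0.00 and -0.28.

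Set against the gene counts of the same library, the introns of 7 of the 10 regulators gave fewer counts per 100 gene counts in both Tdrd6-/- libraries than in both Tdrd6+/- libraries, against 36.3% of 14203 genes tested with both kinds of count. Over all genes the ratio was 52.7 and 41.9 in Tdrd6+/- and 42.5 and 30.6 in Tdrd6-/-, so that it was lowest in the library with the fewest intron counts. Tbpl1 had 46.4 and 39.7 intron counts per 100 gene counts in Tdrd6+/- and 31.0 and 21.4 in Tdrd6-/-. Gtf2a1l had 33.6 and 22.5 against 17.0 and 14.2, and Tcfl5 had 28.2 and 20.3 against 15.5 and 12.5. In these 3 abundant genes the Tdrd6-/- libraries carried fewer intron counts per gene count, while the genotypes overlapped in gene CPM.

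Crem gave 113 and 82.3 intron counts per 100 gene counts in Tdrd6+/- and 70.2 and 49.1 in Tdrd6-/-. Rfx2 gave 42.6 and 33.3 against 32.1 and 27.0, and Mybl1 gave 29.0 and 24.5 against 22.5 and 20.1. Rfx1 gave 125 and 86.6 against 62.9 and 62.7. The genotypes overlapped in the remaining 3, with 179 and 107 against 117 and 92.6 in Sox30, 883 and 670 against 688 and 561 in Rfx3, and 218 and 206 against 213 and 115 in Taf4b. Rfx3 thus had far more counts on introns than on exons in every library. Its intron 18 overlaps the antisense gene Gm20407 and its intron 14 the pseudogene Gm8412, whereas its most counted intron, 17, overlaps no other annotated gene. Whether the counting used strand is not given in the sources used here, so reads of overlapping genes cannot be told apart. The same holds where Rfx1 intron 1 overlaps its antisense gene C330011M18Rik and Crem introns 15 and 16 overlap Gm6225 on the opposite strand. The spans of Tcfl5 and Tbpl1 overlap Col9a3 and Slc2a12 on the opposite strand, but none of their introns do.

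How the intron counts of a gene spread over its introns was then compared, as intron usage, the count of an intron against the rest of its gene's introns. Of 126 introns of the regulators, 116 entered the test, 59 passed the filter on low values, and 8 passed the false discovery rate of 0.1 in the likelihood ratio test, against 1.94% of 28903 introns tested. They lie in 5 genes. In Tdrd6-/-, 4 had lower usage (against 1.22% of all introns in that direction), and 4 had higher usage (against 0.716%). Shares of a gene's introns sum to 100%, so a lower share of an abundant intron raises the shares of the others, and the lower and higher introns of a gene are not independent.

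**Figure D3:**
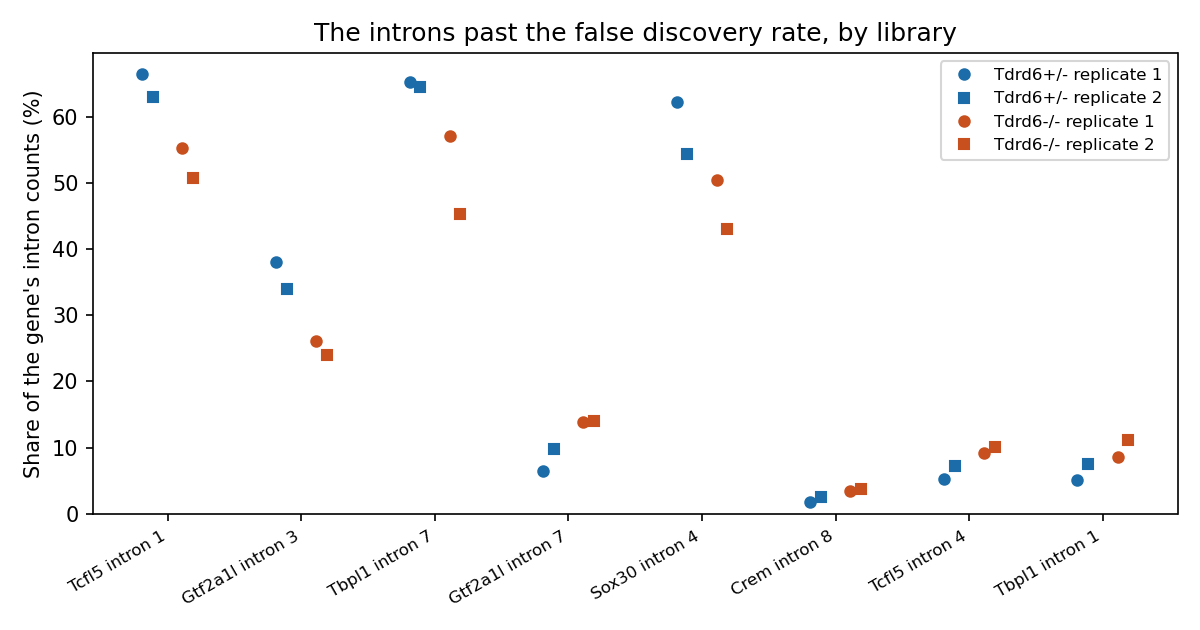
Share of the gene's intron counts, in percent, for the 8 introns past the false discovery rate of 0.1, by library; circles are replicate 1 and squares replicate 2. The shares of Tcfl5 intron 1, Gtf2a1l intron 3, Tbpl1 intron 7 and Sox30 intron 4 are lower in both Tdrd6-/- libraries than in both Tdrd6+/- libraries, and the other 4 are higher.

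The lowered introns were in Tcfl5, Gtf2a1l, Tbpl1 and Sox30. In each of these genes it was the longest intron and the one with the most counts. The exon bases on both sides of 7 of the 8 introns, which locate the splice junction formed when the intron is removed, read as follows in GENCODE transcripts of GRCm38, in the direction of transcription, with 15 bases before and 15 bases after the junction and with the last 3 bases of the upstream exon and the first 2 bases of the downstream exon in capitals.
Tcfl5 intron 1: gactctcttaaaAAGGAatttgagagcgtg
Gtf2a1l intron 3: ccctgcagcccgAAGCAtcgctgctgatcc
Tbpl1 intron 7: ccccgtcttcccACGGAtgtgatcttcgtg
Sox30 intron 4: ttacttcccgtcAAGCAcgtgcccttatag
Gtf2a1l intron 7: aatgccccagaaGAGGAtcccctaaattct
Tcfl5 intron 4: cttgcacagacgCAGAGttctagtaactca
Tbpl1 intron 1: tagatgacctccAAGGGcccaatgtaaagg

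Tcfl5 intron 1 (chr2:180622715-180635253, mm10, minus strand, 12539 bp, the last intron of the transcript, since introns are numbered along the chromosome) took up 66.4% and 63.0% of all intron counts of Tcfl5 in Tdrd6+/- and 55.3% and 50.7% in Tdrd6-/-. In intron CPM it had 212 and 170.0 against 115 and 116. The 2 genotypes did not overlap on either measure (log2 fold change of usage -0.70, SE 0.16, adjusted p = 0.00711). Intron 4 of the same gene, only 417 bp long (chr2:180640464-180640880), had 5.25% and 7.22% against 9.14% and 10.1% (0.69, SE 0.22, adjusted p = 0.0843). Its own level was 16.8 and 19.5 intron CPM in Tdrd6+/- and 19.0 and 23.1 in Tdrd6-/-, ranges that overlapped.

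Gtf2a1l intron 3 (chr17:88671620-88689986, plus strand, 18367 bp) took up 38.0% and 34.0% of all intron counts of Gtf2a1l in Tdrd6+/- and 26.1% and 24.0% in Tdrd6-/- (log2 fold change of usage -0.75, SE 0.18, adjusted p = 0.00834). Its level was 59.4 and 54.0 intron CPM against 29.8 and 34.4. Intron 7 of the gene, 657 bp (chr17:88711699-88712355), had 6.54% and 9.79% against 13.9% and 14.1% (0.89, SE 0.24, adjusted p = 0.0255). Its level was 10.2 and 15.5 intron CPM against 15.9 and 20.2, so here the short intron was also higher in intron CPM in both Tdrd6-/- libraries.

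Tbpl1 intron 7 (chr10:22712092-22731115, minus strand, 19024 bp, the second intron of the transcript, holding the miRNA gene Mir7663) had 65.3% and 64.5% in Tdrd6+/- and 57.1% and 45.3% in Tdrd6-/- (log2 fold change of usage -0.81, SE 0.20, adjusted p = 0.0113). Its level was 259 and 256 intron CPM against 179 and 147. The Tdrd6-/- replicate with the low intron share of the whole library, replicate 2, also had the lowest share here and in each of the other lowered introns. Tdrd6+/- replicate 1, with the highest intron share of the whole library, had the highest share in each of them. In intron CPM, Tdrd6-/- replicate 2 was lowest in Tbpl1 intron 7 and Sox30 intron 4, but not in Tcfl5 intron 1 and Gtf2a1l intron 3. The part of this library difference in the calls was not tested. Intron 1 of Tbpl1, 381 bp (chr10:22705896-22706276) and the last of the transcript, had 5.15% and 7.53% against 8.63% and 11.2% (0.71, SE 0.22, adjusted p = 0.0857).

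Sox30 intron 4 (chr11:45992112-46016974, plus strand, 24863 bp, the last of the gene) had 62.2% and 54.3% in Tdrd6+/- and 50.5% and 43.1% in Tdrd6-/- (log2 fold change of usage -0.67, SE 0.20, adjusted p = 0.0751). Its level was 93.9 and 65.0 intron CPM against 45 and 36. The remaining call was in Crem, whose intron 8, only 139 bp long and without overlap with another annotated gene, had 1.73% and 2.48% in Tdrd6+/- and 3.50% and 3.76% in Tdrd6-/- (0.83, SE 0.26, adjusted p = 0.0773). Its level was 7.52 and 9.01 intron CPM against 10.8 and 11.9, and it rested on 95 to 146 counts per library.

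The 8 calls depended on single libraries. Without Tdrd6+/- replicate 1, 0 of the regulators' introns passed, with 6 at an unadjusted p under 0.05, and without Tdrd6-/- replicate 2, 0 passed, with 7 at that level. The edgeR usage test called 0, with 14 at an unadjusted p under 0.05, and gave all 8 the same direction as the likelihood ratio test. Its log2 fold changes set an intron against all introns of its gene, itself included, and not against the rest. For introns of large share this definition alone brings values nearer to 0, so the sizes cannot be compared directly. For the lowered introns the values were -0.29 against -0.70 for Tcfl5 intron 1, -0.34 against -0.81 for Tbpl1 intron 7, -0.32 against -0.67 for Sox30 intron 4 and -0.53 against -0.75 for Gtf2a1l intron 3.

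Of the other regulators, Rfx2 came closest, with intron 12 (chr17:56787761-56799249, 11489 bp), its most counted intron, at 42.7% and 41.2% in Tdrd6+/- and 36.7% and 30.3% in Tdrd6-/- (log2 fold change of usage -0.52, SE 0.18, adjusted p = 0.126). Without Tdrd6-/- replicate 1 this intron passed (-0.73, adjusted p = 0.0251), and without Tdrd6-/- replicate 2 it was -0.32 (adjusted p = 1). Mybl1 intron 15, the first intron of the transcript (6542 bp), had 17.5% and 18.7% against 16.6% and 15% (-0.24, adjusted p = 0.729), and its tested intron with the smallest p, intron 7, had 4.83% and 4.88% against 5.91% and 7.53% (0.49, adjusted p = 0.460). The most counted intron of Crem, intron 15 (9369 bp, overlapping Gm6225), had 11.8% and 11.5% against 12.8% and 13.8% (0.22, adjusted p = 0.722).

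Rfx3 and Taf4b hold the longest of these introns and showed no call. Rfx3 intron 17 (chr19:27923267-27982853, 59587 bp) had 28.5% and 30.1% in Tdrd6+/- and 31.7% and 31.0% in Tdrd6-/- (log2 fold change of usage 0.14, SE 0.16, adjusted p = 0.854). Of its introns past the filter on low values, intron 16 (22304 bp) had the smallest p (-0.35, adjusted p = 0.714). Taf4b intron 14, 38687 bp, had 36.7% and 34.8% against 34.7% and 28.5% (-0.26, SE 0.21, adjusted p = 0.754). Rfx1 had too few intron counts for any of its 20 introns to pass the filter on low values, and its most counted, intron 1, had 15 to 41 counts per library. The introns of greatest length were thus not those with the largest differences.

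Length and direction went together over the tested introns of the regulators, in length classes chosen after the values were seen. All 10 tested introns below 1000 bp had a log2 fold change of usage of 0 or above, with a median of 0.70, and 4 of them were called. The 24 of 1000 to 5000 bp had a median of 0.30 and 0 were called by the likelihood ratio test, and the 25 of 5000 bp or more had a median of -0.21 with 4 called lower. Over all genes with placed introns the medians of the same classes were 0.11 over 2396 introns, 0.06 over 7484 and -0.08 over 8020, in the same order and nearer to 0. Of these introns, 35, 52 and 33 were called higher and 2, 21 and 214 lower, from the shortest class to the longest. Calls over all genes thus also went up in the shortest class and mostly down in the longest. In 9 regulators with 2 or more tested introns, the longest had a negative value in 7 (77.8%) and the shortest a positive one in 8 (88.9%). Among 3179 such genes of the whole data the shares were 72.2% and 65.0%.

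**Figure D4:**
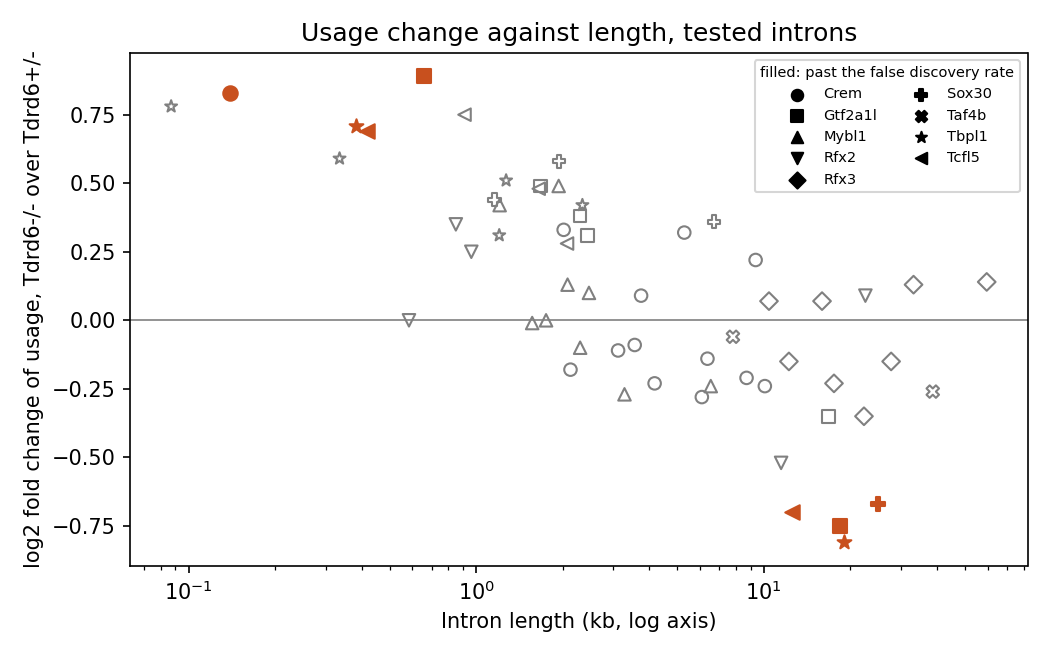
Log2 fold change of intron usage, Tdrd6-/- over Tdrd6+/-, against intron length in kilobases on a log axis, for the 59 tested introns of the regulators; marker shape gives the gene, and filled markers passed the false discovery rate of 0.1. Filled markers below 1 kilobase lie above 0, those above 10 kilobases lie below 0, and the diamonds of Rfx3 stay close to 0 at the greatest length.

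Exon and junction usage, the count of an exon segment or splice junction against the rest of its gene, gave no call for the regulators. Of their 214 exon segments and 156 junctions, 340 entered and 179 passed the filter on low values. Of these 179, 0 passed the false discovery rate in the likelihood ratio test, against 0.221% called of 147710 tested. Of the 340 that entered, 25 had an unadjusted p under 0.05 in that test, 13 of them in Crem. The edgeR usage test also called 0, with 13 at that level. Among those past the filter the smallest p belonged to Sox30 segment 4 (chr11:45991619-45992111, 493 bp), the exon that ends at the start of its lowered intron, with 14.0% and 19.1% of the gene count in Tdrd6+/- and 22.9% and 22.0% in Tdrd6-/- (log2 fold change of usage 0.55, SE 0.20, adjusted p = 0.563). Without Tdrd6+/- replicate 2 it passed (0.84, adjusted p = 0.0811), and without Tdrd6+/- replicate 1 it was 0.30 (adjusted p = 1). Segment 1 of Rfx2 had 34.2% and 33.7% against 37.1% and 38.4% (0.24, adjusted p = 0.777). In both segments the genotypes did not overlap.

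The tested features with the smallest p in the other regulators had adjusted p-values between 0.830 and 1. Tcfl5 segment 3 (938 bp) had 1.99% and 1.82% in Tdrd6+/- and 1.51% and 1.43% in Tdrd6-/-. Mybl1 segment 20 had 3.27% and 3.61% against 4.19% and 4.54%, and Crem segment 57 had 3.64% and 3.79% against 4.91% and 4.70%. In all 3 the genotypes did not overlap. Of Tbpl1, junction 21 had 5.09% and 5.52% against 6.10% and 6.16%, of Gtf2a1l, segment 1 had 0.833% and 0.936% against 1.11% and 1.16%, and of Taf4b, segment 11 had 10.5% and 10.2% against 13.8% and 13.4%. In Rfx3 a single feature was tested, segment 1, with 36.6% and 29.1% against 34.5% and 32.5%, and in Rfx1 none passed the filter.

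Promoter sequences, from 250 bases before to 50 bases after the start, were held for 7 of the 10 regulators in RefSeq (GRCm38.p6), all but Mybl1, Crem and Taf4b. The letters AACNGNC of MYB factors, searched on both strands, occurred in 3 of the 7 (Rfx2, Rfx3 and Tcfl5) and in 32.8% of 27025 promoters. TGACGT, the core of the site of CREB and CREM, occurred in 1 of the 7 (Rfx1) and in 7.64% of all, and CACGCG in 2 (Sox30 and Tcfl5) and in 9.36%. GTTGCCA of RFX factors (4.46% of all), the E-box CACGTG (7.24%), ACAATG of SOX factors (12.8%) and TATAAA (14.2%) occurred in 0 of the 7. Windows around the MYB letters of both known MYBL1 targets, 2 of Rfx2 and 1 of Tcfl5, are shown because MYBL1 and its targets belong to the same set, with the letters in capitals as they read on the strand of the gene, which is the reverse complement of the motif. A match is a description of the letters and not a site.
Rfx2, 177 bases before the start: ccctccccgaGGCCGTTggaggcgggc
Rfx2, 153 bases before the start: ggcatgggcgGGCCGTTggagggggcg
Tcfl5, 142 bases before the start: caagcgggcgGGCAGTTggctgggggt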

How the data were processed

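The authors removed DNA and rRNA from total RNA of sorted hCD4+ testis cells, made directional libraries, aligned fragments to mm10 with GSNAP and deposited counts that were not normalised, per intron in one file and per gene, exon segment and junction in another, for each of 4 libraries. The counting program and its use of strand are not given in the sources used here. The files carry no positions. Introns were placed by their order on GENCODE M21 where a gene had as many introns as gaps between exons (18374 of 24963 genes), and for Mybl1 and Gtf2a1l on its basic set. On the minus strand, numbering along the chromosome gave a median Spearman correlation of intron length and count of 0.79 over 1819 genes, and the reverse order gave -0.09.

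Gene counts and summed intron counts were compared between genotypes by the quasi-likelihood test of edgeR 4.0.16 in R 4.3.3, after TMM scaling and the filterByExpr filter, with standard errors from the F statistic. Usage was tested with the DEXSeq and JunctionSeq models fitted in DESeq2 1.42.0, since those programs were not installed (likelihood ratio test, at least 10 counts in total, 1 round of dispersion estimation, independent filtering). P-values were Benjamini-Hochberg adjusted over all features tested, at a false discovery rate of 0.1. Shares of all genes or features at an unadjusted p under 0.05 were not counted, so counts at that level have no background here. CPM are TMM-scaled, and intron CPM use intron counts. The scripts were tested on simulated data. Comparisons used Tdrd6-/- against Tdrd6+/- as labelled, with 2 libraries each. Nothing says that the pools of a genotype came from separate litters or days, so p-values measure the spread between these libraries. Replicate numbers did not pair the samples: with 2 numbers and no label that ties them, deviations of same-numbered libraries correlated at -0.118 for genes, -0.085 for summed introns, 0.107 for intron usage and -0.052 for exons and junctions. Gene counts of 26454326 to 31388750 per library limit the precision of the low members.

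The 10 regulators and all lists were chosen with earlier results of these data known. All regulators are described. Single introns, segments and junctions are named where they passed the threshold, had the most counts or had the smallest p among the tested ones of their gene, and of the lists at most the 3 largest changes in each direction. Sox6, Rfx4, Odf1, Ldhc, Smcp, Ace, Clu, Sox9 and Stra8 fall outside this rule and were named after their values were seen. So were the introns gained with 10 rounds of dispersion estimation. Lists held markers of late spermatocytes, Sertoli, Leydig and peritubular cells, macrophages, spermatogonia and spermatids, and 4 symbols (Taf9, Kif17, Spag6, Insl3) matched no row of their own and were not analysed here. Alternatives were other normalisations, tools, filters, a replicate block, and leaving out each library.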

Additional observations from a re-analysis of the deposited data

How the results depend on the processing

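The number of calls depended on the tool and on single libraries, and the cause was not tested. For gene expression (794 genes, 1 regulator) the count was 75 genes and 0 regulators without the filter on low counts, and 257 to 1064 genes and 0 to 2 regulators when each library was left out. For summed introns (214 genes, 0 regulators) it was 396 genes and 1 regulator with the DESeq2 Wald test, 3 genes with library sizes of the gene counts, and 4 to 951 genes and 0 to 2 regulators when each library was left out. Of the calls on summed introns, 12.1% were higher in Tdrd6-/- by edgeR and 0.758% by DESeq2. For intron usage (561 introns, 8 of regulators) the edgeR usage test gave 2 and 0, 10 rounds of dispersion estimation gave 1855 and 10, and leaving out each library gave 4 to 1174 introns and 0 to 8 of regulators. For exon and junction usage (327 features, 0 of regulators) the edgeR usage test gave 80, 10 rounds gave 1978 and 6, and leaving out each library gave 51 to 765 features and 0 to 2 of regulators. With 10 rounds, 4 of the 8 introns described were lost, Sox30 intron 4 (adjusted p = 0.234), Tcfl5 intron 4 (0.106), Tbpl1 intron 1 (0.27) and Tbpl1 intron 7 (0.147). Gained were Sox30 intron 1 (0.0109), Tcfl5 introns 5 (0.00744), 3 (0.0937) and 2 (0.0962), Crem intron 1 (0.0719) and Rfx2 intron 3 (0.0824). Of the segments described, Rfx2 segment 1 (0.00561), Tcfl5 segment 3 (0.0493), Crem segment 57 (0.0629) and Mybl1 segment 20 (0.0836) passed. The 10 rounds, the default of DEXSeq, were added after seeing the data, and 1 round was kept because 10 gave many false calls on simulated counts. Those counts had the same dispersion for every feature and no difference in intron share between libraries. They therefore cannot tell which of the calls with 10 rounds in these data are false.

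Replicate numbers were not taken to pair the samples. With a replicate block the counts were 1046 genes, 189 for summed introns, 881 introns and 306 exon and junction features, with 1, 0, 10 and 0 of regulators, and the intron of Rfx2 described above passed (-0.52, adjusted p = 0.0737). A crossed replicate block for gene expression, added after seeing the data, gave 1175 genes and 3 regulators, Sox30 with Rfx1 (0.70, adjusted p = 0.0528) and Rfx3 (-0.57, 0.0697).

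Values near 0 changed sign. Leaving out each library gave -0.02 to 0.30 for Taf4b gene expression, -0.08 to 0.08 for the summed introns of Taf4b and -0.19 to 0.30 for Rfx3 segment 1. The summed introns of Taf4b were -0.01 with DESeq2, -0.28 with library sizes of the gene counts and -0.00 without the filter, and those of Rfx1 were -0.00 with library sizes of the gene counts. The other gene counts, summed introns, called features and features of smallest p of the regulators kept their direction under the alternatives run. Not checked in this way were list genes that are not regulators, and most counted introns with neither a call nor the smallest p.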
